A study of Homo sapiens with 10 samples.

Results

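A549, a lung adenocarcinoma cell line, was compared with HTB-182, a squamous cell carcinoma line of the lung that the study's title calls H520. All 10 of 10 arrays were used, 5 from each line, as chosen by the cell line named in the sample labels. Before treatment, both lines spent 4 h without serum steroids, in charcoal-stripped serum. Treatments lasted 3 h and were the vehicle (0.1% ethanol), estradiol (1 µM), estradiol (1 µM) plus tamoxifen (10 µM), estradiol-BSA (1 µM), in which albumin is attached to the hormone to keep it outside the cell, and estradiol-BSA (1 µM) plus tamoxifen (10 µM). The study asked about rapid transcriptional responses to estradiol, and the contrast between the lines runs through all its treatments. Every treatment was given to both lines, so 5 pairs of arrays, each with 1 array of either line under the same treatment, carried the comparison.

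No replicate cultures are stated. The 5 arrays of a line are 1 cell line under 5 treatments, and the p-values here reflect how these arrays vary. This variation may be technical only, or may also hold treatment responses that differ between the lines. With 1 line for each tumour type, a difference between the lines is a difference between A549 and HTB-182, and line and histology cannot be told apart. Where estradiol and tamoxifen were combined, the array titles mention only the latter. The source entries for A549 carry the number of the other line as well, and the cell line entries, which were followed here, read A549.

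Lung adenocarcinomas arise from glandular or alveolar-type epithelium and commonly carry surfactant genes, mucins and simple-epithelium keratins. Squamous cell carcinomas resemble stratified epithelium, with basal keratins, desmosomal cadherins and the transcription factors p63 and SOX2. Long culture can strip a line of such genes, and tumour lines also differ in detoxification, cell adhesion, growth factor receptors and silenced or reactivated loci. The values here are intensities, the brightness of a probe set (a group of short probes for 1 transcript) on a linear scale. A difference is A549 minus HTB-182 in log2(intensity + 16), given with the standard error (SE) from limma's fit to the 5 pairs. That SE borrows variance from all genes tested, so it is not the spread of a gene's own pairs. Adding 16 damps the noise of dim probe sets and understates the difference of a gene that is dim in one line.

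Most tested genes differed detectably between the lines, and fewer differed by 2-fold or more. A gene was called where its adjusted p was under 0.05 in limma's test with Benjamini-Hochberg adjustment, the lines were at least 2-fold apart and all 5 pairs had the same sign. Of 12975 genes tested, 1713 were called higher in A549 (13.2%) and 1433 higher in HTB-182 (11%), together 24.2%. Without the fold and pair conditions, 8523 genes (65.7%) passed, 4366 higher in A549 (33.6%) and 4157 higher in HTB-182 (32%), and in 7589 genes (58.5%) the 5 values of one line did not overlap those of the other, with A549 the higher in 30.3% and HTB-182 in 28.2%. The median log2 difference over all genes tested was 0.03 and the median size 0.45, against a median SE of 0.10. Differences of 4-fold or more numbered 654 higher in A549 and 429 higher in HTB-182, those of 16-fold or more 141 and 98, and those of 64-fold or more 40 and 19.

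One array stood apart. Set against the mean of the 4 remaining A549 arrays, the A549 vehicle array was 2-fold or more lower in 249 genes and higher in 14, 263 in all. This number was 23 to 35 for the other A549 arrays and 0 to 3 for the HTB-182 arrays. The vehicle array is also the only A549 array without hormone, so treatment and array cannot be told apart. Without the vehicle pair, 1665 genes were called higher in A549 and 1478 higher in HTB-182, and 95.4% of the calls remained. The median intensity over the genes tested was 145 and 141 on the vehicle and estradiol arrays of A549 and 118 to 129 on the other 8 arrays. Of the 3146 called genes, 2202 were at least 2-fold apart in every pair. The lines overlapped in only 3 of the 3146, so a lack of overlap adds little for a gene named because it was called. The pairs of 48 called genes spanned 4-fold or more, among them IGFBP1, an insulin-like growth factor binding protein (log2 1.30 to 4.81 over pairs), and EREG, the EGF receptor ligand epiregulin (2.51 to 5.65).

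The largest differences were in genes that were bright in one line and near background in the other. Values for the 5 arrays of a line are given below in the order vehicle, estradiol, estradiol plus tamoxifen, estradiol-BSA and estradiol-BSA plus tamoxifen. AMIGO2, a cell adhesion protein of the leucine-rich repeat family, had intensities of 6096, 6719, 7743, 7661 and 7568 in A549 and 5.47, 5.07, 5.24, 5.80 and 6.10 in HTB-182. Its log2 difference was 8.37 ± 0.09 (limma, adjusted p = 4.14e-13), 332-fold on this scale. AKR1B10, an aldo-keto reductase that reduces carbonyls and retinal, was at 11577, 11857, 12324, 13039.5 and 13009 in A549 and at 31.7, 33.1, 24.9, 35.3 and 31.8 in HTB-182 (8.03 ± 0.08, adjusted p = 2.28e-13). Both genes were high on every A549 array and, like nearly all called genes, did not overlap between the lines. KYNU, kynureninase of tryptophan breakdown, was at 4551, 4828, 5327, 5221 and 5513 against 3.87, 6.52, 4.87, 4.45 and 4.93 (7.93 ± 0.09), and its other 3 probe sets also differed, by 1.98 to 5.69.

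TFPI2, a secreted inhibitor of serine proteases, was at 3913, 4577, 4238, 3975 and 4147 in A549 and 5.13, 6.25, 6.12, 8.04 and 5.53 in HTB-182 (7.56 ± 0.09). NTS, the peptide neurotensin, was at 2661, 3769.6, 3993, 3852 and 3881 against 6.90, 5.52, 7.46, 6.28 and 6.31 (7.33 ± 0.11). AGR2, a disulfide isomerase of mucus-secreting cells, was at 3954, 5219, 4153, 4062 and 4358 against 11.4, 15.97, 12.7, 10.4 and 18.5 (7.20 ± 0.09). The vehicle array was the lowest A549 array for NTS and AGR2, still far above every HTB-182 array. The other 6 genes of this group were FGG, the gamma chain of fibrinogen (7.17), SRGN, the proteoglycan serglycin (7.10), GNG11, a G protein gamma subunit (7.06), CAV1, the coat protein caveolin 1 (7.06), RSPO3, a secreted amplifier of Wnt signals (7.01), and ANXA1, annexin A1 (7.01). The highest value of these 6 genes on any HTB-182 array was 48.9, of ANXA1, against 2371 or more in A549.

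**Figure D1:**
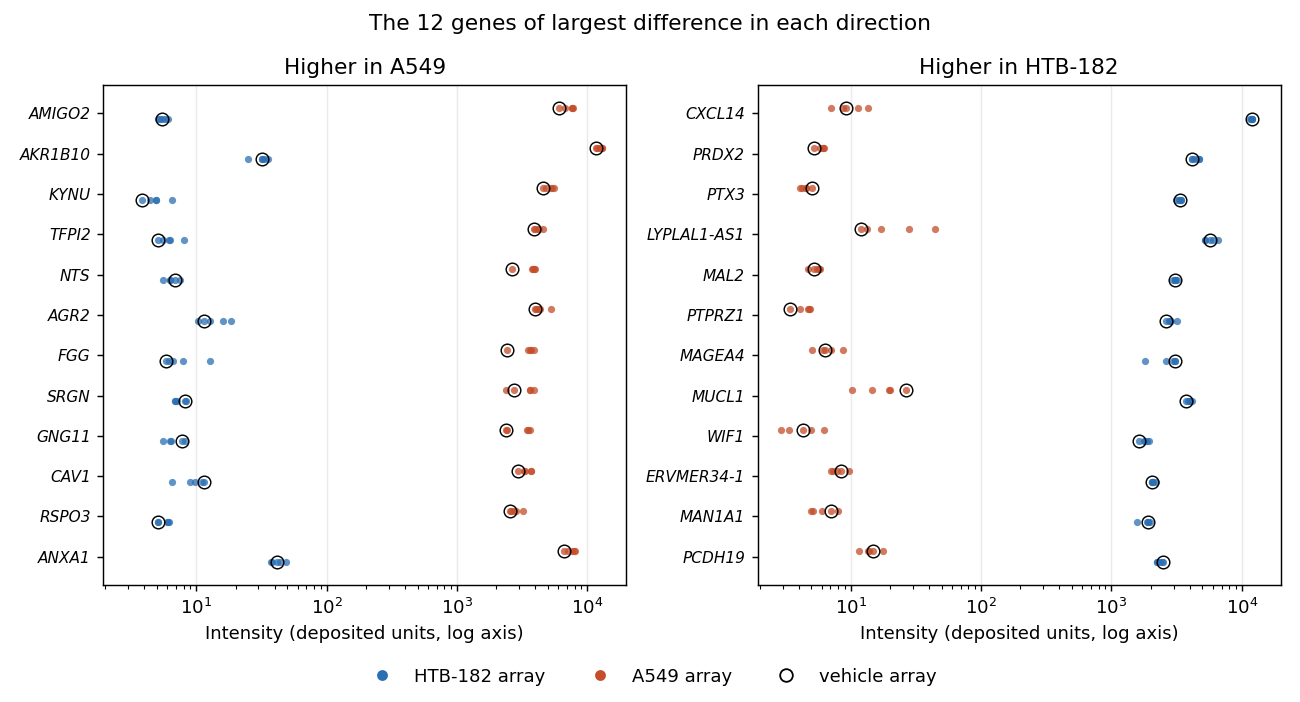
Intensity on each of the 10 arrays (log axis, deposited units) of the 12 genes with the largest difference in each direction; blue points are HTB-182 arrays, red points A549 arrays, and black rings mark the vehicle arrays. The lines do not overlap for any of the 24 genes, as for nearly all called genes. The ringed A549 vehicle array is the lowest A549 array for NTS (2661) and AMIGO2 (6096).

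The largest difference in the other direction was that of CXCL14, a chemokine of epithelia, at 12013, 11657, 12069, 11829 and 12072 in HTB-182 and 9.15, 11.4, 8.72, 13.6 and 7.08 in A549 (-8.85 ± 0.09, adjusted p = 2.28e-13), and its other probe sets differed by -8.77 and -2.38. PTX3, a secreted pentraxin of innate immunity, was at 3350.4, 3131, 3310.0, 3442 and 3413 against 5.06, 4.52, 4.21, 4.12 and 4.52 (-7.35 ± 0.09). MAL2, a membrane protein of apical transport in polarised epithelium, was at 3079, 2951, 3052, 3074 and 3166 against 5.19, 5.73, 4.69, 5.77 and 5.55 (-7.17 ± 0.09). For all 3 the HTB-182 arrays lay within a narrow band and the A549 arrays at background.

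PTPRZ1, a receptor tyrosine phosphatase of neural and glial cells, was at 2622, 2781, 2877, 2828 and 3168 in HTB-182 and 3.40, 4.81, 4.75, 4.89 and 4.09 in A549 (-7.14 ± 0.09). The noncoding RNA LYPLAL1-AS1 was at 5679.8, 5979, 6561, 5236 and 5238 against 11.995, 13.3, 17.1, 44.3 and 28.2 (-7.26 ± 0.17), and its A549 values were spread more widely than those of PTPRZ1. PRDX2, a peroxide-removing enzyme, was at 4166, 4383, 4162, 4708 and 4736 against 5.21, 6.18, 5.85, 6.18 and 6.28 (-7.66 ± 0.09), but its other 3 probe sets above the filter differed only by -1.42, -0.71 and -0.45. The 12 genes of this direction also held MAGEA4, a cancer-testis antigen (-6.89), MUCL1, a small mucin-like secreted protein (-6.88), the Wnt inhibitor WIF1 (-6.49), ERVMER34-1, an envelope gene of a retroviral insertion (-6.45), MAN1A1, a Golgi mannosidase (-6.38), and PCDH19, a protocadherin (-6.29).

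The line labels were set against markers of each tumour type, and both lines held few of their own. Of 14 squamous markers, 10 had a probe set for 1 gene, and TP63, KRT6A, KRT6B and KRT17 were not analysed here. In HTB-182 the 1 squamous marker at 200 or more on all arrays was SOX2, a transcription factor amplified in many squamous tumours, at 4331, 3843, 4377, 3989 and 4221, against 36.1, 164, 131, 192 and 153 in A549 (-4.92 ± 0.24, adjusted p = 1.15e-08). A549 vehicle was the lowest of all arrays for SOX2, whose other probe sets above the filter differed by -3.12 and -0.93. The basal keratins KRT5 (18.7 to 28.5 in HTB-182) and KRT14 (7.26 to 9.30), the desmosomal genes DSG3 (12.1 to 16.1) and PKP1 (12.7 to 19.0), SERPINB5 (6.09 to 12.3) and CLCA2 (5.17 to 5.62) were near or below the filter intensity of 19.8, which the mean over all 10 arrays had to reach for a gene to be tested. TRIM29 (56.7 to 71.8 in HTB-182 and 45.9 to 66.0 in A549), DSC3 (24.6 to 34.0 and 16.9 to 24.9) and S100A2 (29.0 to 45.1 and 43.9 to 70.2) were tested and not called. S100A2 leaned to A549 (0.39). The mean was above the filter for 5 of the 10 markers in HTB-182 and for 5 in A549. The summed intensity of the 10 markers was 4033 to 4581 on HTB-182 arrays and 279 to 392 on A549 arrays, most of the former from SOX2. In the longer list of squamous and basal genes, 1 of 10 tested members was called higher in A549, the Notch ligand JAG1, at 986 to 1419.7 against 298 to 392, and 1 higher in HTB-182, SOX2.

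A549 in turn showed KRT7, a keratin of simple epithelium, and little else of the alveolar set. KRT7 was at 4189.8, 3848, 3179, 3003 and 2836 in A549 and 21.6, 14.8, 15.1, 15.1 and 24.0 in HTB-182 (6.64 ± 0.12), while its other probe set above the filter differed by 0.26. MUC1, a transmembrane mucin, was at 111, 146, 69.4, 85.2 and 81.6 against 24.8, 23.1, 11.98, 33.0 and 34.1 (1.46 ± 0.15), a call lost with a pseudocount of 64 (0.85). The lineage factor NKX2-1 (9.78 to 21.5 in A549 and 15.6 to 20.6 in HTB-182) was dim in both lines. So were the surfactant genes SFTPB (20.8 to 31.2 and 29.8 to 33.5) and SFTPC (27.2 to 57.6 and 40.6 to 53.1). The surfactant gene SFTPD (10.9 to 14.5 and 10.2 to 12.9) and NAPSA (25.5 to 34.8 and 16.6 to 27.5) were dim too. The same held for CLDN18 (10.49 to 16.1 and 10.997 to 18.5) and SLC34A2 (13.8 to 17.8 and 14.3 to 20.4). SFTA2 was the dimmest (3.86 to 7.47 and 5.60 to 7.23). LAMP3, another marker of the set, was higher in HTB-182 with no overlap (8.14 to 9.81 and 15.95 to 22.996). LAMP3 did not enter the test, and none of these genes was called. Of the broader list of alveolar and adenocarcinoma genes, 5 of 13 tested members were called higher in A549 and 0 higher in HTB-182, which also counts AGR2, CTSH, the lysosomal protease cathepsin H (2.28), and CEACAM6, an adhesion protein of glandular epithelium (1.82). The 11 adenocarcinoma and alveolar markers with a probe set summed to 3093 to 4465 on A549 arrays and 219 to 257 on HTB-182 arrays. With the median over probe sets the count of called members was 3.

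Markers of other cell types were examined in the same way. Of the markers of blood, endothelium and stroma, PTPRC, CDH5, VWF, KDR and LUM were under 20 on all arrays, with PTPRC at 6.68 to 8.55 in HTB-182 and 6.56 to 14.04 in A549, CDH5 at 3.54 to 4.72 and 3.50 to 4.84, and LUM at 4.17 to 5.75 and 4.17 to 5.28. The mean was above the filter for 5 of the 12 measured in HTB-182 and for 7 in A549. HBB, a haemoglobin chain, was at 55.6 to 76.9 in HTB-182 and 56.7 to 81.03 in A549, DCN, a stromal proteoglycan, at 29.8 to 41.1 and 36.4 to 46.4, and PECAM1 of endothelium at 20.6 to 26.0 and 22.8 to 37.2. COL3A1, a fibrillar collagen chain, did not enter the test and was at 6.53 to 8.28 and 20.8 to 42.4. The summed intensity of the 12 was 212 to 248 in HTB-182 and 636 to 792 in A549. Among them COL1A1, a chain of type I collagen, was higher in A549 (429, 266, 475, 373 and 369.8 against 20.4, 19.1, 22.9, 20.1 and 20.6, 3.42 ± 0.12), but its other 3 probe sets above the filter differed by -0.13 to 0.94, and the call was lost with the median over probe sets (0.45) and with a pseudocount of 4 (-0.15), under which another probe set was the brightest. CD14, a co-receptor for bacterial lipopolysaccharide, was higher in A549 by 1.81 ± 0.15, a call lost with a pseudocount of 64 (0.94).

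**Figure D2:**
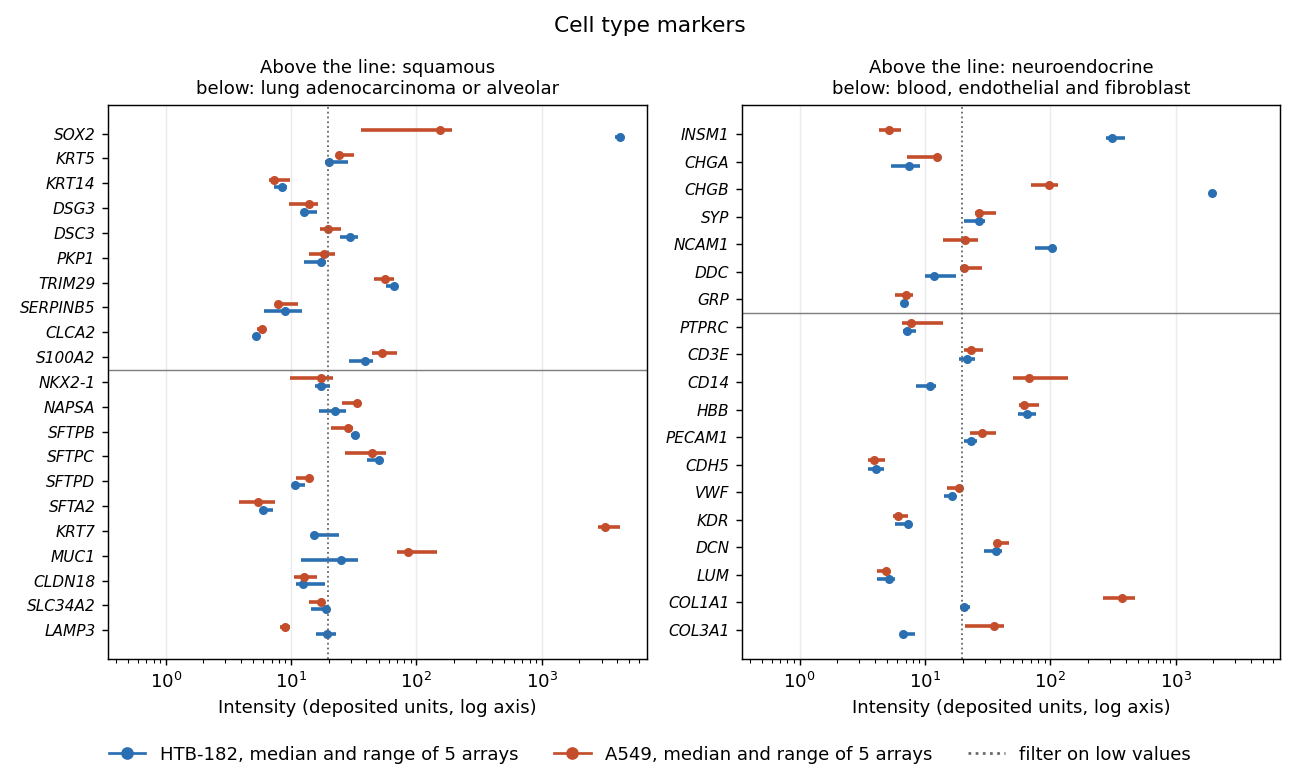
Intensity (log axis, deposited units) of the cell type markers, as the median (point) and range (bar) of the 5 arrays of each line, with A549 in red and HTB-182 in blue; the dotted line is the filter intensity of 19.8. SOX2, INSM1, CHGB and NCAM1 stand to the right in HTB-182 and KRT7, MUC1, COL1A1 and CD14 in A549, while most markers of both lineages lie near the dotted line.

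HTB-182 also carried part of a neuroendocrine set, the genes of hormone- and peptide-secreting cells. INSM1, a transcription factor of neuroendocrine cells, was at 307, 281, 313, 378 and 395 in HTB-182 and 6.46, 5.17, 5.17, 4.28 and 5.80 in A549 (-4.03 ± 0.11). CHGB, the granule protein chromogranin B, was at 2015, 1914, 1943, 1853 and 1971 against 69.6, 116, 103, 98.3 and 94.8 (-4.14 ± 0.11), and BEX1, a brain-expressed X-linked gene, at 917, 1063, 971, 1061 and 997 against 22.7, 10.9, 29.3, 23.2 and 16.4 (-4.82 ± 0.13). The lines did not overlap for these genes, as for nearly all called genes. In contrast, CHGA (5.32 to 9.19 in HTB-182), SYP (20.7 to 30.2), DDC (10.1 to 17.7) and GRP (6.502 to 7.09) were near background in HTB-182. In A549 the same genes were at 7.16 to 13.2, 24.9 to 36.9, 19.0 to 28.5 and 5.79 to 8.03. DDC was higher in A549 with no overlap, but DDC, CHGA and GRP did not enter the test. Over the list, 6 of 15 tested members were called higher in HTB-182 and 1 in A549, with a median of -0.31. The 7 neuroendocrine markers with a probe set summed to 2319 to 2539 in HTB-182 and 179 to 209 in A549. The 1 member called higher in A549 was SNAP25, a protein of vesicle fusion at synapses, at 221, 1365, 1332, 1643 and 1724 against 8.55, 11.4, 9.23, 11.4 and 10.1 (5.33 ± 0.33). Its other probe sets above the filter differed by 1.63 and 2.21. Its vehicle value was far below the other 4 A549 arrays.

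The list results that follow are counts of called members, to be read against the shares of all tested genes above, 13.2% for A549 and 11% for HTB-182, and list medians against the median of all tested genes, 0.03. Some genes stand in more than 1 list, and no test compares a list with other genes. A gene is tested on its mean over all arrays, so it can pass the filter through 1 line alone. List shares and medians, those above included, partly reflect this.

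**Figure D3:**
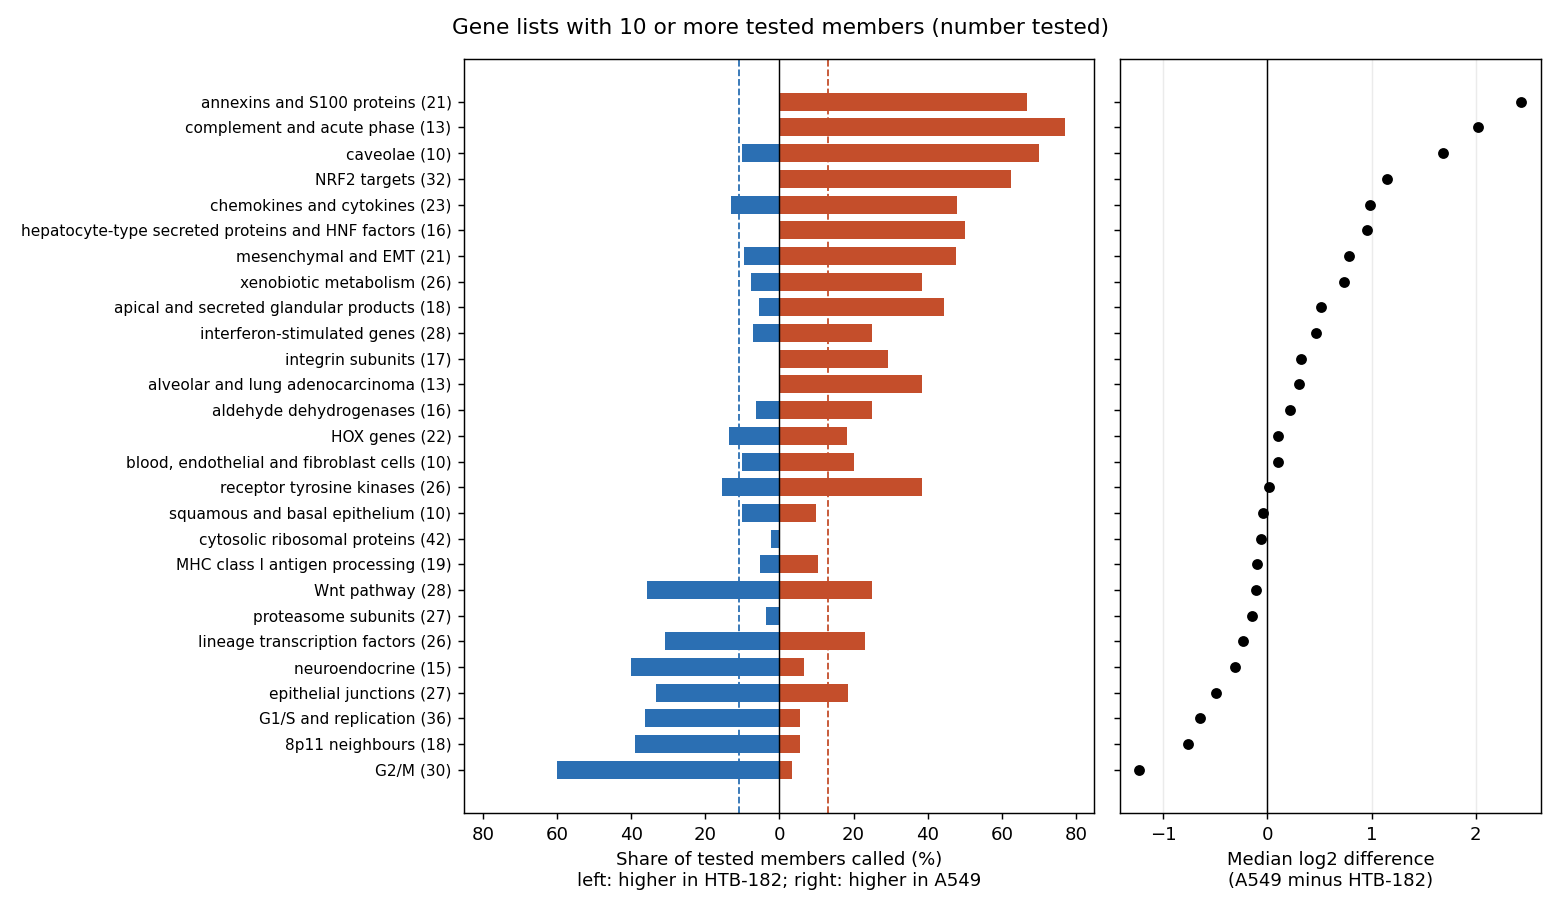
Left, the share of tested members (percent) called higher in A549 (red, to the right) or in HTB-182 (blue, to the left) for every list with 10 or more tested members, whose number stands in brackets; dashed lines mark the shares over all genes, 13.2% and 11%. Right, the median log2 difference of the same members, from -1.23 for G2/M genes to 2.44 for annexins and S100 proteins.

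Genes typical of liver cells were called higher in A549 where they were called at all. The list was of hepatocyte-type secreted proteins and their transcription factors, and also held the enzyme CPS1. It had 26 members with a probe set, of which 16 were tested. Of these 16, 8 were called higher in A549 and 0 higher in HTB-182 (median 0.96, 15 above 0). Fibrinogen, the precursor of the blood clot, is built from chains encoded by FGA, FGB and FGG, which lie next to each other on chromosome 4. FGG was at 2421, 3724, 3894, 3621 and 3532 in A549 and 5.82, 6.62, 12.7, 7.91 and 6.15 in HTB-182 (7.17 ± 0.11, adjusted p = 1.82e-12). FGB was at 2175, 2962, 3793, 3277 and 3429 against 9.28, 6.86, 10.2, 9.89 and 17.0 (6.87 ± 0.12), and FGA, named after its values were seen, at 767, 929, 736, 996 and 937 against 13.5, 15.3, 10.4, 16.6 and 16.4 (4.86 ± 0.10). All 3 chains were near background on every HTB-182 array, and the vehicle array was the lowest A549 array for FGG and FGB. CPS1, the entry enzyme of the urea cycle, was at 915, 1231, 1047, 879.6 and 1145 against 10.7, 16.1, 10.4, 11.3 and 18.6 (5.17 ± 0.10), with its other probe set at 3.51.

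Because the 3 fibrinogen genes moved together, their promoters are shown, 250 bases before to 50 after the annotated start (RefSeq, GRCh38.p14), at chr4:154590693-154590992 on the minus strand, chr4:154562730-154563029 on the plus strand and chr4:154612607-154612906 on the minus strand. Capitals mark matches on either strand to GTTAAT, an arm of the palindromic element of the hepatocyte factor HNF1.
FGA: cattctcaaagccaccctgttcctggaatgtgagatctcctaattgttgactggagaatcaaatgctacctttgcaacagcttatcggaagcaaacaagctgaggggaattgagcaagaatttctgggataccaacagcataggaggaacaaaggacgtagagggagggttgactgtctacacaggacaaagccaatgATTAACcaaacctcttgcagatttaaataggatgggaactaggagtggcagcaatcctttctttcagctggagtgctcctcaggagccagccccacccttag
FGB: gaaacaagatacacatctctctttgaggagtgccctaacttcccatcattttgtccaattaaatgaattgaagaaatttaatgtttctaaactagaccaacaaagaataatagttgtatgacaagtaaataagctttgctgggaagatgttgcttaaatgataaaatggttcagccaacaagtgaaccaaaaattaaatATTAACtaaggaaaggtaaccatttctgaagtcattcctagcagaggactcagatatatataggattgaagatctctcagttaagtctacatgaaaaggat
FGG: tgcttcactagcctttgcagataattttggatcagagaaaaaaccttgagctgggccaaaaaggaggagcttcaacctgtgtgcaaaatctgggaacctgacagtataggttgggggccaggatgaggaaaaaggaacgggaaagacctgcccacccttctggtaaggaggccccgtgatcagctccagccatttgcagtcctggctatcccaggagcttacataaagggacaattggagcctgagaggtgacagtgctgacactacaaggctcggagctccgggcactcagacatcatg
FGA and FGB held 1 match each and FGG none. The letters occur in 6.89% of the 27305 promoters of the same length (3.83% of those of tested genes), in 3 of 6 called list members with a promoter in the table (FGA, FGB and APOH) and in 4 of 11 tested ones. This short form was taken up after 3 longer spellings of the full HNF1 element had matched 1 (FGA), 0 and 1 (APOH) of the 6, with 0.293%, 0.0330% and 0.370% of all promoters. A match describes letters and not a bound site.

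Complement and acute phase genes, which serve innate defence in plasma, were called for A549 in most cases. Of 13 tested members, 10 were called higher in A549 and 0 higher in HTB-182 (median 2.02). C1S, a protease of the classical pathway, was at 744, 789, 646, 604 and 525 against 17.1, 14.6, 9.04, 11.49 and 12.1 (4.54 ± 0.11), with another probe set at 0.76. C5, source of the C5a peptide, differed by 4.43 ± 0.12, and CD55, a membrane inhibitor of complement, by 3.12 ± 0.12 with other probe sets at 2.63 and 2.66.

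Targets of NRF2, the transcription factor that switches on antioxidant and detoxifying enzymes, were called higher in A549 in most cases. Of 32 tested members, 20 were called higher in A549 and 0 higher in HTB-182, with 30 above 0 and a median of 1.15. Besides AKR1B10, ABCC3, an exporter of conjugated organic anions, was at 2882, 2939, 2979.6, 2106 and 2492 in A549 and 15.97, 15.4, 19.4, 19.7 and 19.8 in HTB-182 (6.30 ± 0.12), with 4 other probe sets at 0.53 to 4.06. HMOX1, which degrades heme, was at 4891, 4538, 3394, 3218 and 3328 against 72.1, 60.8, 72.7, 76.2 and 83.7 (5.43 ± 0.13). GCLM, the modifier subunit of the enzyme that starts glutathione synthesis, named after its values were seen, was bright in both lines, at 3069, 3751, 3929.6, 4031 and 3980.3 against 1243, 1068, 1256, 1275 and 1253 (1.61 ± 0.07, adjusted p = 5.63e-09). The lines did not overlap for any of these genes, as for nearly all called genes.

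The GCLM promoter is shown because it holds the core of the antioxidant response element, the letters TGACNNNGC to which NRF2 binds, in capitals (RefSeq, GRCh38.p14, chr1:93909381-93909680, minus strand).
GCLM: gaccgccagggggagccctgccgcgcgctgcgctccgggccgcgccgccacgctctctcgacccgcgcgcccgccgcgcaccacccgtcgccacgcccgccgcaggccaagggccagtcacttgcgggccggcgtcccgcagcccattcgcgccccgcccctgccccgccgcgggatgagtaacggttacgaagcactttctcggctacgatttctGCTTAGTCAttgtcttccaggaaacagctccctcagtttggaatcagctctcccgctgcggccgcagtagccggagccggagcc
The core occurred in 5 of 14 called NRF2 targets with a promoter in the table (GCLM, TXNRD1, PGD, GPX2 and CBR1), in 7 of 24 tested ones, and in 13.6% of all promoters (15.3% of those of tested genes). GCLM was picked for printing because it holds a match.

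Enzymes of drug and aldehyde metabolism differed in both directions. Of 26 tested xenobiotic genes, 10 were called higher in A549 and 2 in HTB-182 (median 0.73), and with a pseudocount of 64 the A549 count was 5. CYP24A1, which inactivates vitamin D hormone, was at 1293, 1537, 4286, 3302 and 3854 in A549 and 6.52, 6.10, 4.85, 5.86 and 6.61 in HTB-182 (6.87 ± 0.24), lower on the vehicle and estradiol arrays of A549 than on the other 3. NNMT, which methylates nicotinamide, differed by 6.44 ± 0.14 and CYP1B1, a cytochrome of steroid and hydrocarbon oxidation, by 4.58 ± 0.12. Its relative CYP1A1 was higher in HTB-182 (-1.72 ± 0.12), as was CES1, a carboxylesterase (-2.003 ± 0.14). Of 16 aldehyde dehydrogenases, 4 were called higher in A549, and ALDH1A1, which makes retinoic acid, was bright in both lines, at 11096 to 12194 against 959 to 988 (3.57 ± 0.05). ALDH3A1 differed by 3.70 ± 0.11 and ALDH3B1 by 3.58 ± 0.14, while ALDH7A1, of lysine breakdown, was the 1 member higher in HTB-182 (-1.29 ± 0.08). Other probe sets above the filter differed by 0.12 and 2.78 for ALDH3B1 and by -1.33 and -0.35 for ALDH7A1.

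Annexins and S100 proteins were called higher in A549 in most cases. Annexins bind membrane phospholipids when calcium rises, and several pair with S100 proteins. Of 21 tested members, 14 were called higher in A549 and 0 higher in HTB-182 (median 2.44). ANXA1 was at 6633, 8076, 7107, 7626 and 7873 in A549 and 41.5, 37.4, 38.3, 44.0 and 48.9 in HTB-182, with its other probe set at 1.07. S100A10, the partner of annexin A2, was at 6329, 6857, 7292, 6966 and 7101 against 46.7, 56.5, 71.3, 57.0 and 62.8 (6.54 ± 0.08), and S100A11 at 1539.6, 1719, 1508, 1403 and 1489.8 against 33.5, 21.9, 27.1, 23.5 and 23.3 (5.21 ± 0.10). HTB-182 was low on all its arrays for the 3 genes.

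Caveolae, flask-shaped pits of the plasma membrane, are coated by caveolins and cavins. CAV1 was at 2931, 3294, 3685, 3711 and 3311 in A549 and 11.49, 9.77, 6.52, 8.90 and 10.96 in HTB-182 (7.06 ± 0.11), and its other probe set differed by 6.46. CAV2, its partner, was at 1224, 1252, 1844, 2197 and 2041 against 18.3, 17.2, 19.6, 18.1 and 18.5 (5.61 ± 0.14). CAVIN1 was higher in A549 (2.96 ± 0.15), but CAVIN2 was higher in HTB-182, at 2362, 2154, 2510.4, 2203 and 2527 against 100.2, 86.8, 111, 224 and 213 (-3.95 ± 0.17), with its other probe set at -3.48. In all, 7 of 10 tested members were called higher in A549 and 1 higher in HTB-182 (median 1.69).

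Epithelial and mesenchymal genes differed in both directions. Of 21 mesenchymal genes tested, 10 were called higher in A549 and 2 in HTB-182 (median 0.78), with 6 for A549 by the median over probe sets. COL5A2, a fibrillar collagen chain, was at 1485, 2021, 2586, 3038 and 2997 in A549 and 10.1, 9.18, 13.05, 7.42 and 12.3 in HTB-182 (6.49 ± 0.15). TGFBI, a matrix protein induced by TGF-beta, differed by 5.11 ± 0.08 and FSTL1, a secreted glycoprotein, by 4.33 ± 0.17. Against this direction, the mesenchymal transcription factor TWIST1 was higher in HTB-182 (-2.33 ± 0.12, 161 to 186 against 10.9 to 25.2), and so was the matrix protease MMP2 (-1.04 ± 0.12), whose call was lost with a pseudocount of 64 (-0.59) and without either estradiol-BSA array (-0.92).

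Of 27 tested genes of epithelial junctions and their regulators, 9 were called higher in HTB-182 and 5 in A549 (median -0.49). ESRP1, which directs epithelial splicing, was at 1373, 1089, 1443, 1527 and 1526 in HTB-182 and 8.49, 6.28, 6.71, 6.86 and 4.91 in A549 (-5.95 ± 0.11), with its other probe set at -3.74. EPCAM, an adhesion protein of epithelial surfaces, was at 7438, 7134, 7508, 7161 and 7023 against 173, 443, 538, 513 and 535 (-4.09 ± 0.20), and ST14, the membrane protease matriptase, differed by -3.17 ± 0.11. The tight junction genes CLDN1 (126, 489.6, 508, 460.5 and 541 against 11.01, 14.1, 12.5, 13.3 and 11.3, 3.81 ± 0.24) and CLDN2 (3.50 ± 0.17) and the epithelial transcription factor ELF3 (3.36 ± 0.11) were higher in A549. A549 vehicle was the lowest A549 array for both EPCAM and CLDN1, which lie on opposite sides of the comparison. Of 17 integrin subunits, the receptors for matrix, 5 were called higher in A549 and 0 in HTB-182, led by ITGB5 (2.82 ± 0.08), ITGA3 (1.93 ± 0.21) and ITGAV (1.80 ± 0.08).

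Growth factor receptors differed in both directions. Of 26 receptor tyrosine kinases tested, 10 were called higher in A549 and 4 in HTB-182, and with the median over probe sets 5 and 2. IGF1R, the receptor of insulin-like growth factor, was at 378, 547, 394, 489 and 496 in A549 and 8.38, 5.25, 6.61, 4.80 and 7.01 in HTB-182 (4.40 ± 0.12), with other probe sets at 3.08 and 3.96. AXL, the receptor of GAS6, was at 595, 568, 536, 481 and 540.2 against 14.03, 15.98, 12.1, 15.8 and 8.08 (4.26 ± 0.11), with another probe set at 0.37. EGFR was at 508, 438, 377, 342 and 446 against 14.8, 12.9, 14.9, 13.2 and 21.3 (3.80 ± 0.11), its other 7 probe sets above the filter ran from -0.25 to 2.99, and the call was lost with the median over probe sets (0.77).

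Higher in HTB-182 were PTK7, a pseudokinase of planar polarity (-2.99 ± 0.12, other probe set -0.87), KIT, the stem cell factor receptor (-2.32 ± 0.22), and FGFR3 (-1.58 ± 0.10). KIT was at 139, 145, 146, 158 and 34.5 in HTB-182 and 14.6, 7.64, 7.37, 11.6 and 8.30 in A549, so that its difference in the estradiol-BSA plus tamoxifen pair was the smallest. The FGFR3 call was lost with the median over probe sets (-0.81).

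The Wnt pathway, in which secreted ligands stabilise beta-catenin and so drive LEF and TCF factors, differed in both directions. NKD1, a brake on Dishevelled, was at 3148, 3391, 3230.5, 3307 and 3023 in HTB-182 and 51.3, 30.3, 26.0, 22.3 and 19.0 in A549 (-6.18 ± 0.13), with other probe sets at -4.64 and -1.97. LEF1, the nuclear partner of beta-catenin, was at 1039, 935, 929.8, 976 and 1053 against 8.59, 8.45, 12.9, 6.42 and 9.47 (-5.32 ± 0.11), while its other probe sets differed by -0.54 and 0.10. WIF1, which binds Wnt ligands, was at 1641, 1822, 1794, 1954 and 1876 against 4.34, 6.26, 2.94, 3.37 and 5.00 (-6.49 ± 0.10). A549 instead had DKK1, an inhibitor at the LRP co-receptors, at 6045, 6099, 5950.4, 5641 and 5587 against 37.7, 27.1, 26.4, 25.3 and 55.1 (6.90 ± 0.13), and the receptors FZD2 (3.28 ± 0.16) and FZD7 (3.18 ± 0.10). Over the list, 10 of 28 members were called higher in HTB-182 and 7 in A549 (median -0.11). The TCF element CTTTGAT was found in 0 of 7 called members with a promoter in the table and in 2.64% of all promoters (1.40% of those of tested genes), which says only that these letters are not in those windows.

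Secreted signals of inflammation were called mostly for A549. Of 23 chemokines and cytokines tested, from 35 with a probe set, 11 were called higher in A549 and 3 in HTB-182 (median 0.98). The A549 count was 6 with a pseudocount of 64 and 3 with the filter at the 75th percentile of all values. CXCL5, a neutrophil chemokine, was at 1799, 1901, 2645, 3304 and 3087 in A549 and 4.63, 6.30, 4.42, 6.20 and 4.42 in HTB-182 (6.88 ± 0.14). IL18 differed by 4.76 ± 0.14 and GDF15, a stress-induced cytokine, by 3.60 ± 0.13. Besides CXCL14, the growth factors PTN (-1.93 ± 0.09) and MDK (-1.37 ± 0.11) were higher in HTB-182, calls that were lost with a pseudocount of 64 (-0.97 and -0.93).

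Interferon-stimulated genes, which cells switch on against viruses, differed in both directions. Of 28 tested, 7 were called higher in A549 and 2 in HTB-182 (median 0.47), with 4 for A549 under the stricter filter. IFI27 was at 1362, 1436, 1407, 1432 and 1267 in HTB-182 and 21.5, 11.95, 20.8, 18.1 and 15.2 in A549 (-5.39 ± 0.11). The membrane-bound virus inhibitors IFITM2 (532, 2057, 1553, 1365 and 1376 against 47.3, 31.7, 67.6, 34.4 and 40.4, 4.44 ± 0.25) and IFITM3 (3.47 ± 0.21) and the GTPase GBP3 (2.72 ± 0.09) were higher in A549. IFITM2 and IFITM3 are closely similar copies, and their signals may not be separate. The RNA sensor IFIH1 was higher in HTB-182 (-1.19 ± 0.17), lost with a pseudocount of 64 (-0.56). Of 19 genes of MHC class I antigen processing, 2 were called higher in A549, HLA-E (1.502 ± 0.10) and TAPBP (1.12 ± 0.13), and 1 in HTB-182, the peptide trimmer ERAP1 (-2.06 ± 0.10). All 3 calls were lost with the median over probe sets, at 0.60, 0.19 and 0.08.

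Cancer-testis antigens, genes of the germ line that some tumours reactivate, were high in HTB-182 where they were measured above the filter, which 6 of 18 with a probe set passed. Of these 6, 5 were called higher in HTB-182 and 0 in A549 (median -4.05). With no filter on low values all 18 were tested, 5 were called higher in HTB-182 and the median was close to 0. MAGEA4 was at 3093, 1819, 2981, 3065 and 2625 in HTB-182 and 6.40, 5.01, 7.07, 8.81 and 6.12 in A549, with the estradiol array lowest in HTB-182. MAGEA6 was at 3539, 3113, 3437, 3291 and 3214 against 67.2, 135, 136, 107 and 144 (-4.68 ± 0.14) and MAGEA11 at 637, 572, 501, 632 and 647 against 11.49, 12.4, 10.2, 9.01 and 5.70 (-4.57 ± 0.12). The MAGEA genes are close copies of each other, so their probe sets may share signal.

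Among lineage transcription factors, 8 of 26 were called higher in HTB-182 and 6 in A549 (with the median over probe sets 4 and 3). Besides SOX2 and INSM1, RUNX2, a factor of bone formation, was higher in HTB-182 (150.0 to 206 against 4.13 to 5.54, -3.17 ± 0.10), although its other probe sets above the filter differed by -0.03 and 0.11. CEBPB, a factor of the acute phase response, was higher in A549 (1653 to 1958 against 201 to 245, 2.92 ± 0.08), and so was the epithelial factor EHF (1.73 ± 0.16), lost with a pseudocount of 64 (0.91). In the HOX family, which marks position along the body axis, 4 of 22 tested members were called higher in A549 and 3 in HTB-182. HOXB3 (216 to 421 in A549 against 15.8 to 18.8, 3.20 ± 0.13) and HOXC10 (107 to 142 in HTB-182 against 13.7 to 21.8, -1.99 ± 0.10) kept their calls in every alternative in which they were tested (HOXC10 did not pass the filter at the 75th percentile). With a pseudocount of 64 the counts were 1 and 1.

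Glandular secretions and apical proteins were called higher in A549 for 8 of 18 tested members and higher in HTB-182 for 1, and the A549 count was 4 with a pseudocount of 64 and 2 with the filter at the 75th percentile. The list had 28 members with a probe set. SLPI, an inhibitor of leukocyte proteases, was at 809, 918, 572, 487 and 539.7 against 71.8, 65.7, 45.5, 77.8 and 90.1 (2.96 ± 0.17), TFF1, a trefoil peptide of mucus, differed by 2.34 ± 0.15, and MUC13, a membrane mucin, by 2.07 ± 0.11. The 1 member higher in HTB-182, lysozyme LYZ (-1.04 ± 0.11), lost its call without the vehicle pair (-0.92), with array quality weights (-0.93) and with a pseudocount of 64 (-0.45).

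Cell division genes were called higher in HTB-182 in most cases. Of 30 genes of G2 and mitosis, 18 were called higher in HTB-182 and 1 in A549 (median -1.23, 28 below 0). KIF2C, a kinesin that takes microtubules apart, was at 1819.6, 1997, 1936, 1912 and 1909 in HTB-182 and 350.4, 278, 218, 215 and 225 in A549 (-2.84 ± 0.11). CDC20, the activator of the anaphase-promoting complex, was at 2555, 2677, 2407, 2586 and 2622 against 913, 704, 466, 508 and 492 (-2.08 ± 0.12), and the checkpoint kinase TTK at 738, 718, 912, 794 and 857 against 162, 166, 195, 215 and 201 (-2.01 ± 0.09). CDK1, the kinase of mitotic entry, named after its values were seen, differed by -1.16 ± 0.08. The exception was the phosphatase CDC25B, higher in A549 (2.21 ± 0.11). The A549 vehicle array was the highest A549 array for KIF2C, CDC20 and CDC25B. It was the lowest for TTK and for CDK1 (966 against 1266 to 1515). In RNA from a whole culture, fewer cells in a phase and less RNA per cell cannot be told apart.

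Genes of G1/S and DNA replication gave 13 of 36 called higher in HTB-182 and 2 in A549 (median -0.65). RFC4, a subunit of the clamp loader, was at 2949, 3035, 3027, 3259 and 3217 against 468, 378, 398, 378 and 410.1 (-2.88 ± 0.08), and MCM2, of the replicative helicase, differed by -2.54 ± 0.09. CDKN1A, the p21 inhibitor of cyclin-dependent kinases, was higher in A549 (971, 1015, 754, 689 and 755 against 48.0, 33.2, 46.4, 37.7 and 61.3, 3.80 ± 0.14), as was CCND3, cyclin D3 (2.51 ± 0.10, its other probe set 0.08). Few members of the housekeeping complexes were called. Of 42 ribosomal protein genes 1 was called, RPL36, higher in HTB-182 (-1.05 ± 0.09), and lost without either estradiol-BSA plus tamoxifen array (-0.95) and with the median over probe sets (-0.56). Of 27 proteasome subunits 1 was called, PSMD2, higher in HTB-182 (-1.61 ± 0.10). The list medians were -0.06 and -0.14.

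Promoters of G2/M genes are known to carry CCAAT boxes and the cell cycle homology element with the core TTTGAA. They are shown in capitals, on either strand, for CDC20 (chr1:43358731-43359030, plus strand) and CDK1 (chr10:60778081-60778380, plus strand), which were picked because they hold both (RefSeq, GRCh38.p14).
CDC20: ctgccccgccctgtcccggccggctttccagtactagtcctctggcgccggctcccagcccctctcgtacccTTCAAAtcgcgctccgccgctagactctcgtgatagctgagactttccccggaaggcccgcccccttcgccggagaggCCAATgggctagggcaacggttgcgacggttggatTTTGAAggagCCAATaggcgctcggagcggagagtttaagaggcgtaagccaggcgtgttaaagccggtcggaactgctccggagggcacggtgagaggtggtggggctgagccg
CDK1: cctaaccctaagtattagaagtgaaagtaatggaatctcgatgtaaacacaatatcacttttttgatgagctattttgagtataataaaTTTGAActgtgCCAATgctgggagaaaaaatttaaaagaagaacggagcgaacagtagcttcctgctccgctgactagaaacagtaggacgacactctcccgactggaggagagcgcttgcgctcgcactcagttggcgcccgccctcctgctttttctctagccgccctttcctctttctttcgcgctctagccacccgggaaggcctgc
CCAAT was found in 12 of 17 called G2/M members with a promoter in the table, in 19 of 24 tested ones and in 35.7% of all promoters. TTTGAA was found in 10 of 17, in 14 of 24 and in 15.4%. The members share their function as well as these letters, and no test was made of either share. Of tested genes with a promoter, 36.4% held CCAAT and 9.85% TTTGAA. An E2F element, TTTNGCGC, was in 4 of 13 called G1/S genes with a promoter and in 11 of 29 tested ones. It was in 1.83% of all promoters and in 2.84% of those of tested genes.

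CDKN2A, which encodes the cell cycle inhibitors p16 and p14ARF on chromosome 9, was at 502, 488, 424, 568 and 508 in HTB-182 and 13.8, 16.8, 17.9, 19.5 and 7.42 in A549 (-4.06 ± 0.12, adjusted p = 1.86e-10). Its other probe set above the filter differed by -4.51, and all A549 values of both were under 20. The adjacent gene MTAP, which salvages methionine, gave opposite readings by its probe sets. It was not called and had a difference of 0.40 ± 0.11 by its brightest probe set (106, 104, 86.3, 91.5 and 55.5 in HTB-182 and 139, 142, 127, 97.5 and 101 in A549). By 3 other probe sets it was far lower in A549, at 4.27 to 6.22 against 242 to 289.8, 5.15 to 11.04 against 178 to 222, and 6.04 to 9.75 against 99.3 to 166 (log2 differences of -3.73, -3.12 and -2.78). With the median over its probe sets the difference was -2.40 (limma, adjusted p = 9.81e-09). MTAP was singled out after its values were seen. Further along, ELAVL2, a neuronal RNA-binding protein, was higher in HTB-182 (-3.47 ± 0.12), and MLLT3 (2.04 ± 0.25) and HACD4 (1.32 ± 0.10, lost with a pseudocount of 64, 0.58) were higher in A549. MLLT3 was the lowest in the A549 vehicle array, at 59.4 against 155 to 276.

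Of the 18 tested genes around the FGFR1 locus on the short arm of chromosome 8, 7 were called higher in HTB-182 and 1 in A549 (median -0.76). PLEKHA2 was at 1258, 1261, 1191, 1154 and 1218 in HTB-182 and 273, 249, 199, 205 and 220.4 in A549 (-2.34 ± 0.09), PLPBP differed by -2.20 ± 0.09 with other probe sets at -2.13 and -2.03, and EIF4EBP1, a brake on cap-dependent translation, by -1.65 ± 0.10. The exception was the sheddase ADAM9, higher in A549 (1.28 ± 0.12), with other probe sets at -0.18 and 1.61.

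How far other probe sets bear out a called gene was counted over the whole table. Of the 3146 called genes, 1726 had another probe set above the filter in at least 1 line, 3067 in all, and 1420 had none. Of the 3067, 94.4% had the sign of the brightest probe set, and 47.5% were also 2-fold or more apart in its direction. For 639 genes this held for all other probe sets above the filter. Only 5 probe sets, of RASEF (2), TGOLN2, CHD2 and ENSA, were at least 2-fold apart in the opposite direction. RASEF, a Rab-type GTPase, was at -1.39 by its brightest probe set and at 2.58 and 1.34 by the others. Among 4650 genes that were not called and had another probe set above the filter, 461 (9.91%) had at least 1 that was 2-fold apart, and 23 had 3 or more. A called gene with no second probe set rests on 1 measurement, and 147 called genes were read by probe sets whose suffix (x_at) marks probes that may match other transcripts. A further 888 were read by probe sets with the suffix s_at, which marks probes shared by more than 1 transcript, possibly of the same gene. Other probe sets are not given for every named gene, so a gene printed without them is not thereby borne out.

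**Figure D4:**
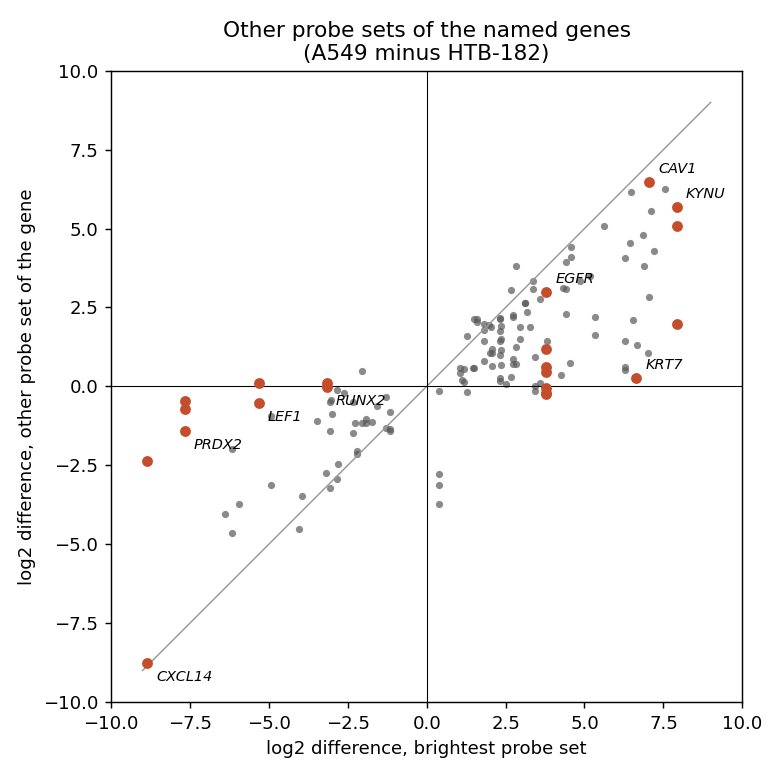
The log2 difference (A549 minus HTB-182) of each other probe set above the filter, against that of the brightest probe set of the same named gene; the diagonal marks equality and red points are labelled genes. Most points keep the sign of the brightest probe set but lie nearer to 0, with CAV1 (6.46 against 7.06) and the best CXCL14 probe set (-8.77 against -8.85) close to the diagonal and PRDX2, KRT7, LEF1 and RUNX2 far from it. The other probe sets are dimmer by the choice of the brightest, which can shrink their differences.

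Differences were also laid out by gene order along the chromosomes (RefSeq, GRCh38.p14). Over 12708 windows of 11 neighbouring tested genes, 83.0% had a median within 0.5 of 0, 167 had a median of 1 or more and 209 of -1 or less. The 3 lowest windows that do not overlap all lie on chromosome 1. They run from KIF2C to TOE1 (median -2.45, 6 genes called higher in HTB-182), from TTF2 to PHGDH (-2.27, 7 called) and from LOC101929536 to ZFP69 (-2.25, 8 called), with none called higher in A549. UROD, of heme synthesis, was at 2678, 2895, 2741, 2897 and 3017 in HTB-182 and 398, 313, 298, 299 and 322 in A549 (-3.07 ± 0.09, other probe sets -3.22 and -1.41). MUTYH, a DNA repair glycosylase next to TOE1, differed by -3.10 ± 0.15, EIF2B3, a translation factor subunit, by -2.72 ± 0.11, and ZSWIM5 by -3.11 ± 0.11.

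PHGDH, the first enzyme of serine synthesis, was at 913, 925, 881, 968 and 1022 in HTB-182 and 124, 113, 79.3, 83.9 and 89.3 in A549 (-3.09 ± 0.11). In the same window TENT5C differed by -3.06 ± 0.10, GDAP2 by -2.82 ± 0.12, WDR3 by -2.27 ± 0.07 and WARS2, a mitochondrial tRNA synthetase, by -1.72 ± 0.12. Their other probe sets above the filter differed by -0.48, -2.45, -1.15 and -1.13. The last window held a run of 6 adjacent called genes, TRIT1, MYCL, MFSD2A, PPT1, RLF and ZMPSTE24. MYCL, a relative of the MYC oncogene, was at 372, 309.7, 377, 389 and 379 against 36.8, 31.1, 35.8, 23.1 and 25.2 (-3.04 ± 0.12), and its other probe set differed by -0.42. RLF, a zinc finger gene, differed by -2.82 ± 0.11, and PPT1, a lysosomal thioesterase, by -2.25 ± 0.06. MYCL, RLF and PPT1 were lower on every A549 array than on any HTB-182 array, and nearly all called genes likewise lacked overlap.

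The highest windows were on chromosome 7 from TFPI2 to PDK4 (median 2.00, 9 genes called higher in A549), on X from IL3RA to ARSL (1.99, 9 called) and on chromosome 11 from CTR9 to RASSF10 (1.92, 6 called), with none called higher in HTB-182. PDK4, a brake on pyruvate oxidation, was at 1745, 2325, 2381, 1963 and 2158 in A549 and 4.03, 4.63, 5.37, 4.28 and 6.998 in HTB-182 (6.65 ± 0.10). The other PDK4 probe set above the filter differed by 1.30. In the same window GNG11 stood beside TFPI2, and the lactonase PON3 was at 1057, 985, 929.8, 844 and 825 against 32.3, 48.6, 42.9, 45.6 and 40.7 (4.03 ± 0.12), its relative PON2 differing by 2.68 ± 0.05 and BET1, of vesicle transport, by 2.00 ± 0.12. On X, 9 adjacent genes from ASMTL to ARSL formed the longest run of called genes. CD99, a leukocyte and tumour surface protein in that run, was at 1478, 1677, 1440.1, 1440.2 and 1298 against 46.0, 59.2, 57.2, 64.6 and 65.0 (4.32 ± 0.11), the sulfatase ARSL differed by 3.33 ± 0.13 and DHRSX, a dehydrogenase, by 2.00 ± 0.12. GYG2, at 1.04 ± 0.09, was not called after centring (0.95) or quantile normalization (0.99), with a pseudocount of 64 (0.58) or with the median over probe sets (0.69), and AKAP17A (1.19 ± 0.10) not with the median over probe sets (0.22).

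On chromosome 11, MICAL2, which oxidises actin, was at 729, 912, 759, 802 and 841 in A549 and 18.5, 19.5, 22.9, 25.3 and 25.1 in HTB-182 (4.43 ± 0.10). TEAD1, the DNA-binding partner of YAP, differed by 2.72 ± 0.08, DKK3, a secreted glycoprotein, by 2.75 ± 0.13, and PARVA, an integrin-linked adaptor, by 2.36 ± 0.10. Runs of at least 5 neighbouring tested genes called in a single direction numbered 23, with 11 higher in A549 (61 genes) and 12 higher in HTB-182 (67 genes). They include the run MDFIC, TES, CAV2, CAV1 and MET on chromosome 7 in A549, the fibrinogen genes with MAP9 and TDO2 on chromosome 4 in A549, and 4 runs on chromosome 3 in HTB-182. One of the latter holds FXR1, DNAJC19, SOX2-OT, SOX2 and ATP11B, where SOX2-OT overlaps SOX2 and their signals may not be separate, and another holds RFC4. On chromosome 3 as a whole 142 genes were called higher in HTB-182 and 95 in A549 of 721 tested.

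**Figure D5:**
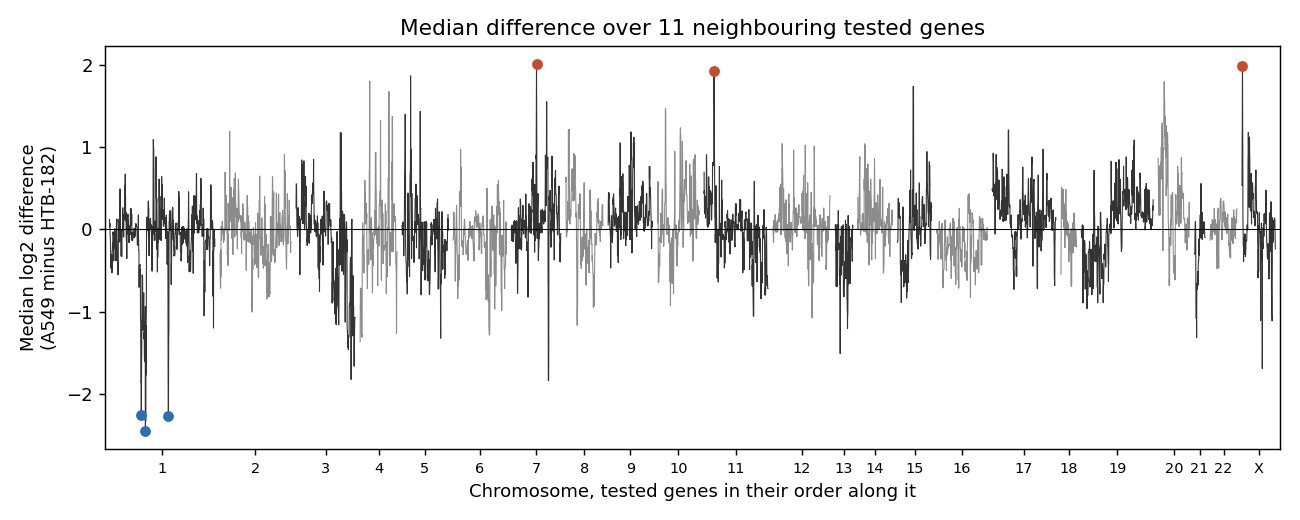
Median log2 difference (A549 minus HTB-182) over every window of 11 neighbouring tested genes, by order along each chromosome; red and blue points mark the 3 highest and 3 lowest windows. The 3 sharpest troughs stand on chromosome 1 (-2.45, -2.27 and -2.25), with a broader stretch below 0 at the end of chromosome 3 and peaks on chromosomes 7, 11 and X.

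By fixed limits on intensity, 182 genes were at 200 or more on all A549 arrays and at 40 or less on all HTB-182 arrays, and 136 the other way round. By the same limits 3855 of 19775 genes were bright in both lines and 8196 dim in both. By their brightest probe sets, the targets of the study's treatments were near the filter in both lines. ESR1, for estrogen receptor alpha, was at 19.9 to 26.6 in A549 and 17.5 to 26.3 in HTB-182, ESR2 at 19.3 to 43.8 and 26.0 to 29.7, and the membrane receptor GPER1 at 19.1 to 29.6 and 17.3 to 29.8. The lines overlapped for all 3, and none was called (limma, adjusted p = 0.217, 0.949 and 0.572).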

How the data were processed

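RNA of each culture was hybridised to 1 Affymetrix array of 54675 probe sets. The authors deposited 1 intensity per probe set and array, on a linear scale, made with MAS5 per the submitters' processing notes. For its version, scaling and target value: not given in the sources used here. Array medians ran from 17.5 to 21.5. The number of arrays limits the precision.

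Probe sets were named through the platform annotation supplied with the data and updated against RefSeq (41037 of 41091 with 1 gene matched). After leaving out 62 control probe sets, 41091 had 1 gene symbol, 1801 several and 11721 none named here. Each of 19775 genes was read from its brightest 1-gene probe set, as log2(intensity + 16) with no further normalization. A gene was tested where its mean log2 value over all 10 arrays reached the median of such means over all probe sets (an intensity of 19.8), which left 12975. limma 3.58.1 (R 4.3.3, lmFit and eBayes) tested the cell line with the treatment as a block, on 4 residual degrees of freedom, with Benjamini-Hochberg adjustment, and was tested on simulated data. Alternatives changed the pseudocount, filter, normalization, probe set rule, block and array weights, or left out arrays.

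The members, lists and tests were chosen with earlier results of these data known. The text names the 12 most different called genes in each direction, up to 3 called genes per list and direction, called genes of the 3 highest and 3 lowest windows, cell type markers, and the estrogen receptors. The rule as written also took the uncalled members of the windows and of 3 lists, 213 genes in all, 43 of them not called. After the values were seen it was narrowed to called genes, and FGA, GCLM, CDK1 and MTAP were added. Under the wider rule, of 4174 values over all alternatives 4050 kept direction and call, 44 lost the call, 17 gained it and 63 reversed sign, and 25 of 426 line groups had an array apart. Promoters and motif spellings were chosen after several had been tried. Genes of the Y chromosome and XIST are not reported.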

Additional observations from a re-analysis of the deposited data

Results flagged for a closer look

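In 20 of the 354 groups of 5 arrays examined, 2 for each named gene, the highest or the lowest array lay apart from the other 4, by its gap to the nearest array as a share of the whole range in log2(intensity + 16), which had to pass 0.71. Chance flags about 1 in 20 groups. The A549 vehicle array accounted for 12 of the 20. The gap shares and intensities were as follows, and the difference between the lines kept its call without the vehicle pair for every called gene in the vehicle sentences below.

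On the A549 vehicle array 8 genes were low. NTS was at 2661 there against 3769.6 to 3993 on the other 4 arrays, a gap share of 0.858. For FGG the values were 2421 and, on the other 4, 3532 to 3894 (gap share 0.794). The share was 0.75 for SOX2, at 36.1 against 131 to 192. SNAP25 was at 221 there against 1332 to 1724 on the other 4 arrays, a gap share of 0.872. For CLDN1 the values were 126 and, on the other 4, 460.5 to 541 (gap share 0.886). The share was 0.826 for EPCAM, at 173 against 443 to 538. TWIST1 was at 10.9 there against 21.7 to 25.2 on the other 4 arrays, a gap share of 0.791. For GCLM the values were 3069 and, on the other 4, 3751 to 4031 (gap share 0.735). On the same array 4 genes were high. MUC13 was at 125 there against 79.8 to 89.0 on the other 4 arrays, a gap share of 0.763. For ELAVL2 the values were 16.9 and, on the other 4, 5.99 to 8.01 (gap share 0.782). The share was 0.806 for DKK3, at 383 against 264 to 284. UROD was at 398 there against 298 to 322 on the other 4 arrays, a gap share of 0.732.

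HTB-182 arrays gave the other 8. On the estradiol array the low values were these. MAN1A1 was at 1582 there against 1869 to 1969 on the other 4 arrays, a gap share of 0.762. For IFITM3 the values were 31.7 and, on the other 4, 62.1 to 76.2 (gap share 0.748). The share was 0.81 for MYCL, at 309.7 against 372 to 389. GCLM was at 1068 there against 1243 to 1275 on the other 4 arrays, a gap share of 0.857. On the estradiol plus tamoxifen array the high value was this. ASMTL was at 96.4 there against 82.3 to 85.9 on the other 4 arrays, a gap share of 0.731. On the estradiol-BSA array the low value was this. GYG2 was at 24.8 there against 26.1 to 26.3 on the other 4 arrays, a gap share of 0.856. On the estradiol-BSA plus tamoxifen array the low value was this. KIT was at 34.5 there against 139 to 158 on the other 4 arrays, a gap share of 0.906. On the estradiol-BSA plus tamoxifen array the high value was this. EGFR was at 21.3 there against 12.9 to 14.9 on the other 4 arrays, a gap share of 0.735.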

How the results depend on the processing

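Counts of called genes stayed within 1.5 times the main count under every alternative, at 1176 to 1923 for A549 and 1024 to 1652 for HTB-182. Leaving out arrays gave 1665 to 1769 and 1394 to 1478, and by adjusted p alone 3956 to 4329 and 3799 to 4454. Under a treatment block, dropping an array leaves its partner with no weight in the estimate. Without the block the count was again 3146. No paired analysis by replicate number was possible because the labels give no replicate numbers, so the treatment formed the pairs. Of the calls still tested, 71.0% were kept with a pseudocount of 64, 74.3% with the median over probe sets (28 reversed), and 94.8% or more under each other setting. Centring the arrays shifted the median of all genes by -0.09 and moved the share of calls that were higher in A549 from 54.5% to 48.4%. Values that moved or reversed were these. The filter at the 75th percentile left 2882 genes higher in A549 by adjusted p alone, since fewer genes were tested. Genes bright in A549 and dim in HTB-182 numbered 101 with limits of 400 and 40 and 114 with 200 and 20, and the other way round 74 and 79. With all other probe sets counted, 31.1% were 2-fold apart the same way. Windows of 21 genes gave extremes of 1.37, on chromosome 20, and -1.65, on chromosome 1. With the median over probe sets the highest window was 1.51, on chromosome 3, so the chromosome 7 window did not stay highest. The sign turned for ERAP1 (0.080) and MTAP (-2.40) with the median over probe sets, for COL1A1 with a pseudocount of 4 (-0.15), for ESR2 with a pseudocount of 64 (0.0013) and on leaving out arrays (-0.13 to 0.073), and for GPER1 with centred arrays (-0.041). Over 177 named genes, 3430 of 3485 values kept direction and call, 44 lost the call and 11 reversed. Of 1160 list counts 73 moved by over 1.5 times. The cause of the other shifts was not tested.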
